A study of Mus musculus with 6 samples.

Results

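Phospholipase C, the IP3 receptors and protein kinase C (PKC) form one signalling route, and 10 of its genes were followed across 6 RNA sequencing libraries of mouse embryonic fibroblasts (MEFs). They were chosen by symbol and selected on RPKM values of these libraries, whose line differences were known, and were taken from a deposited table of 26231 genes: 4 phospholipases (Plcb1, Plcb3, Plcb4 and Plcg1), 3 IP3 receptors (Itpr1, Itpr2 and Itpr3) and 3 kinases (Prkca, Prkcd and Prkce). The cells came from FVB embryos with Nf2 alleles flanked by loxP sites, were immortalized with SV40 large T antigen, and were kept in serum-free medium for 24 h before RNA was taken. Embryos were about 14 days old by the labels, and the methods give a slightly earlier day. Of the 2 lines, the control (labelled WT (control), here 3 libraries) received a vector lentivirus with a CMV-driven GFP. The line labelled Nf2 KO (3 libraries) received CMV-Cre GFP lentivirus, so that both lines derive from floxed cells and carry large T antigen and a lentivirus, and by design the floxed allele is recombined in the Cre line. There is only 1 line of each kind, and the labels do not say that replicates are separate cultures, so errors here describe the spread between libraries, which may be technical.

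Receptors coupled to the G protein Gq switch on phospholipase C beta, and receptor tyrosine kinases switch on phospholipase C gamma. Both enzymes split the membrane lipid PIP2 into IP3, which opens IP3 receptors and lets calcium out of the endoplasmic reticulum, and diacylglycerol, which stays in the membrane and recruits PKC. Conventional PKC isoforms such as PKC alpha need calcium and diacylglycerol, PKC delta and epsilon need diacylglycerol without calcium, and atypical isoforms need neither. In fibroblasts this route answers bradykinin, thrombin, lysophosphatidic acid and growth factors.

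Values are taken here as RPKM (reads per kilobase of exon and per size of the library), a unit inferred from the values and not stated. On that reading levels can be compared between genes. The step between low values puts the libraries at 13397363 to 72753565 reads, deepest in replicate 3 of both lines. Nf2, the targeted gene, was at 14.3, 13.7 and 13.1 RPKM in control replicates 1, 2 and 3 and at 15.4, 12.9 and 13.9 RPKM in the libraries labelled Nf2 KO (log2 difference 0.03, standard error 0.10, limma adjusted p = 0.987). Single exons were not analysed here, and every direction below follows the labels, which Nf2 RNA does not separate. Of 12 fibroblast markers, 9 were at 1 RPKM or more in every library, the exceptions being Pdgfra, Lum and Dcn. Their summed level was 2567 to 3399 RPKM in the control and 1782 to 2337 RPKM in the libraries labelled Nf2 KO, and its part in the differences below was not tested. Among markers of other cell types only Krt19, Kdr and Cd68 reached 1 RPKM in every library. In bulk RNA, fewer cells of a type and less RNA per cell cannot be told apart.

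The line differences of the 10 genes were known when the genes were chosen, so they are given as a description, and the counts of genes past a threshold below are no independent evidence of a difference. Itpr3 and Prkca were lower in all 3 libraries labelled Nf2 KO than in any control library, while Plcb4, Itpr1 and Prkce were higher in all 3. The libraries of the lines overlapped for Plcb1, Plcb3, Plcg1, Itpr2 and Prkcd. Of the 10 genes, 9 had at least 1 RPKM in at least 3 libraries and entered the fit of 11067 genes, with Plcb1 left out. Non-overlap was thus seen in 5 of the 9, against 15.1% of all genes tested, with 3 higher (7.6% of all genes) and 2 lower (7.52%). In limma 3 of the 9 passed an adjusted p of 0.05, Plcb4 higher (0.479% of all genes were) and Itpr3 and Prkca lower (0.578% of all genes were). Over both directions 1.06% of all genes passed. With the replicate number as a block the same genes passed, Plcb4 higher (2.99% of all genes were) and Itpr3 and Prkca lower (4.54% of all genes were). Since the choice used this contrast, nothing is read from these shares. The calls depended on replicates 1 and 3. None of the 3 passed without control replicate 1, control replicate 3, the library labelled Nf2 KO replicate 1 or the one labelled Nf2 KO replicate 3, with 3 to 4 of the 9 at an unadjusted p under 0.05 in each case. Without control replicate 2 only Itpr3 and Prkca passed, and without the library labelled Nf2 KO replicate 2 only Prkca, while all 3 passed without replicate 2 of both lines. The differences themselves stayed near their size when any single library was left out, at 0.72 to 0.85 for Plcb4, -0.95 to -0.77 for Itpr3 and -1.09 to -0.91 for Prkca on the log2 scale.

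**Figure D1:**
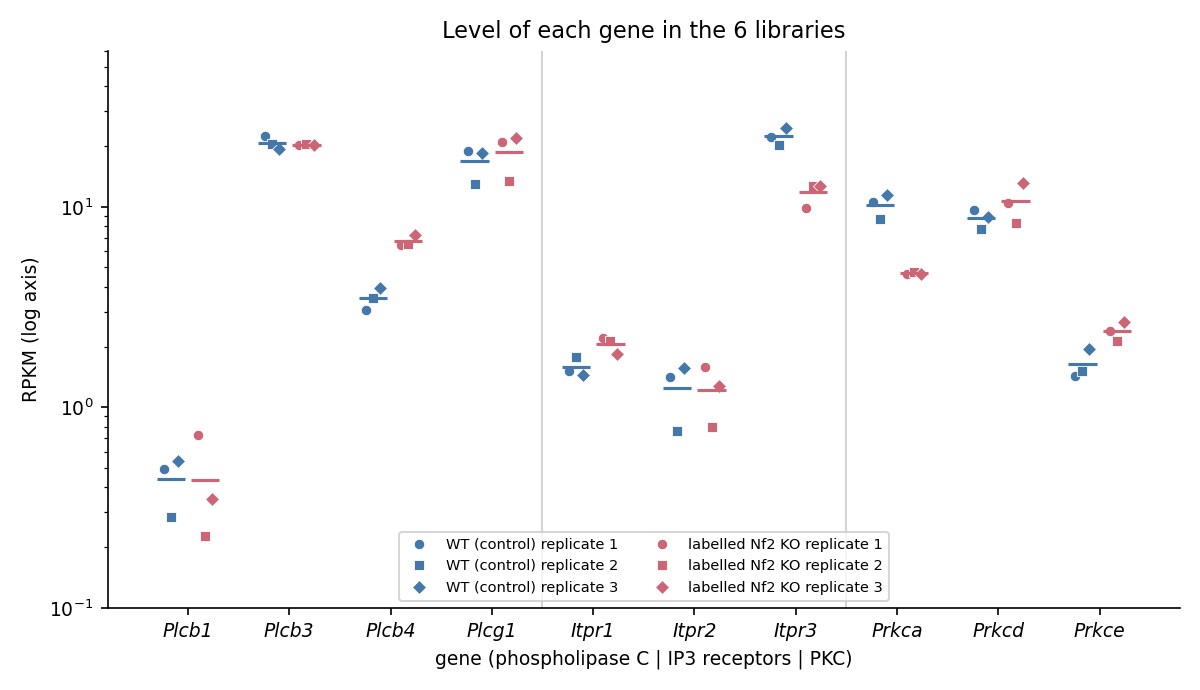
RPKM (log axis) of the 10 genes in each library, blue for WT (control) and red for libraries labelled Nf2 KO, with the replicate number as symbol and the group mean as a line. Itpr3 and Prkca sit lower and Plcb4 higher in all 3 red libraries, while Plcb1, Plcg1, Itpr2 and Prkcd are lowest in replicate 2 of both lines.

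Promoter sequences are shown for Itpr3, Prkca and Plcb4, the 3 genes with the largest differences, to show what kind of start sites these are. They are from RefSeq on GRCm38.p6, which had windows for 8 of the 10 genes and none for Itpr1 and Prkce. Each line runs 5′ to 3′ on the gene's strand and ends at the start site or, for Prkca, 40 bases before it, where annotated exon begins. Capitals mark a GC box (GGGCGG) or a TEAD motif (GGAATG) on either strand.
Itpr3, chr17:27057054-27057303, plus strand: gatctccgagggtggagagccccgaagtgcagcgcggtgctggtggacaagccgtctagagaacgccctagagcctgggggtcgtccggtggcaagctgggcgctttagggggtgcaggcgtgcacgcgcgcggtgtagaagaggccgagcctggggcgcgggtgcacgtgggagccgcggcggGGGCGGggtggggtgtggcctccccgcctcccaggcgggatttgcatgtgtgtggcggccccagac
Prkca, chr11:108343929-108344138, minus strand: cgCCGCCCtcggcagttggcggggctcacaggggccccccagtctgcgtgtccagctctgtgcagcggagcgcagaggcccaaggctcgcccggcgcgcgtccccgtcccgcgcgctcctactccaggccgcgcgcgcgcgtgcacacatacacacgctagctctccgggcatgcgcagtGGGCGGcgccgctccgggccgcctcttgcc
Plcb4, chr2:135764588-135764837, plus strand: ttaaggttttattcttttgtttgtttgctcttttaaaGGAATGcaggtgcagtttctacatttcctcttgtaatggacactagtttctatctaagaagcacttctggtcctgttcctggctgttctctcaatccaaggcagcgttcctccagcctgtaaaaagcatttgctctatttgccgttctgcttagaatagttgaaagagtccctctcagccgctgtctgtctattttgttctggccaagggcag
Of the 8 genes with a window, 7 were rich in G and C, whether or not they differed between the lines. Over the full 250 bases of the RefSeq window, Itpr3 had 72.0% G or C and 25 CpG pairs and Prkca 76.8% and 39, against medians of 52.4% and 6 over 32817 such windows. Plcb1, Plcb3, Plcg1, Itpr2 and Prkcd, whose libraries overlapped, had 64.4% to 74.4% and 18 to 22 CpG pairs. Plcb4 had 42.8% and 3 CpG pairs, but its RefSeq start lies 23008 bases from the nearest principal start in GENCODE vM21, so that this window may not be the start used in these cells. A GC box was found in 32.7% of all windows, and Itpr3 held 1 and Prkca 2, against 5 in Plcb3, 4 each in Itpr2 and Prkcd and 1 each in Plcb1 and Plcg1. The TEAD motif, for the DNA-binding partners of YAP and TAZ, was found in 12.6% of all windows, once each in Plcb4 and in the nearly level Plcb3, and in none of the other 6 genes with a window. An NFAT motif (GGAAA, whose first 4 letters it shares with the TEAD motif) occurred in 55.6% of all windows and once each in Plcb1, Plcb3 and Plcb4. The AP-1 motif (TGANTCA) was present in 6.75% of all windows and the TATA and CCAAT boxes, searched by the letters TATAAA and CCAAT, in 12.4% and 33.8%. None of the 3 windows shown held any of them. A match is a description of letters and not of binding.

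Among the phospholipases, which start the route, Plcb3 and Plcg1 were the most abundant and Plcb4 was the one that differed between the lines. Plcb4, the beta isoform best known from cerebellum and retina, lies on chromosome 2 of GRCm38 from 135659011 to 136014593. It was at 3.07, 3.498 and 3.92 RPKM in control replicates 1, 2 and 3 and at 6.47, 6.502 and 7.23 RPKM in the libraries labelled Nf2 KO. Every library labelled Nf2 KO was above every control library, with means of 3.498 ± 0.425 and 6.73 ± 0.429 RPKM (SD, n = 3 each) and a log2 difference of 0.78 (standard error 0.11). On this log2(RPKM + 1) scale, where low genes change less than in RPKM, the difference was 0.88, 0.74 and 0.74 within replicate numbers 1, 2 and 3.

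Plcb3, the broadly expressed Gq-driven isoform, was nearly level. It was at 22.5, 20.7 and 19.5 RPKM in the control and at 20.2, 20.5 and 20.3 RPKM in the libraries labelled Nf2 KO, and its highest library was 1.16 times its lowest, the smallest range of the 10 genes. Its log2 difference was -0.03 (standard error 0.09), less than the spread between control replicates. An exon of Plcb3 (chromosome 19, 6952325 to 6976470) overlaps Ppp1r14b on the opposite strand, and whether counting used the strand is not stated. Ppp1r14b, a phosphatase inhibitor that PKC phosphorylates, was far more abundant, at 206 ± 19.99 and 201 ± 29.4 RPKM (SD, n = 3 each).

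Plcg1, the isoform that binds growth factor receptors, varied with the replicate number more than with the line. It was at 19.0, 13.0 and 18.6 RPKM in control replicates 1, 2 and 3 and at 21.0, 13.4 and 22.0 RPKM in the libraries labelled Nf2 KO. Replicate 2 was lowest in both lines, the libraries overlapped, and the log2 difference of 0.14 (standard error 0.22) was smaller than the gap between replicates. Plcb1, known from brain and from the nucleus, was the lowest of the 10 genes, at 0.495, 0.285 and 0.541 RPKM in the control and 0.726, 0.229 and 0.350 RPKM in the libraries labelled Nf2 KO. These values rest on 49 to 366 reads by the inferred depth. The libraries overlapped, with means of 0.440 ± 0.136 and 0.435 ± 0.260 RPKM (SD, n = 3 each), and the gene was not tested.

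As a share of all beta isoforms, Plcb4 was at 11.8%, 14.3% and 16.4% in the control and at 23.6%, 23.8% and 25.9% in the libraries labelled Nf2 KO. The mean share was 14.1 ± 2.30% and 24.5 ± 1.29% (SD, n = 3 each), and the groups did not overlap. Plcb3 made up the rest almost alone, with 84.1 ± 2.52% and 73.9 ± 1.29% (SD, n = 3 each). Plcb2, the isoform of blood cells, stayed at or under 0.0327% in every library. The level of Plcb3 itself was nearly the same in both lines (the ratio of the group means was 0.974), so the share moved with Plcb4. The ratio of Plcb3 to Plcb4 was 6.07 ± 1.19 in the control and 3.03 ± 0.196 in the libraries labelled Nf2 KO (SD, n = 3 each).

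The IP3 receptors are large calcium channels of the endoplasmic reticulum, and Itpr3 was by far the main one in these fibroblasts. Itpr3, on chromosome 17 from 27057304 to 27122223, was at 22.4, 20.3 and 24.7 RPKM in control replicates 1, 2 and 3. In the libraries labelled Nf2 KO it was at 9.86, 12.7 and 12.8 RPKM. No library of one line reached the range of the other, and the means were 22.5 ± 2.21 and 11.8 ± 1.67 RPKM (SD, n = 3 each). The log2 difference was -0.88 (standard error 0.13), and it was -1.11, -0.64 and -0.90 within replicate numbers 1, 2 and 3. An antisense gene, Itpr3os, overlaps its exons, as genes on the other strand do for Prkca (Apoh), Plcg1 (Zhx3) and Itpr1 (Gm44040), and without strand their reads cannot be told apart.

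Itpr1, the receptor that dominates in neurons and smooth muscle, went the other way at a much lower level. It was at 1.51, 1.78 and 1.45 RPKM in the control and at 2.22, 2.14 and 1.84 RPKM in the libraries labelled Nf2 KO. The groups did not overlap, but control replicate 2 and the library labelled Nf2 KO replicate 3 lay close together. The log2 difference was 0.25 (standard error 0.11). Itpr2, the receptor with the highest IP3 affinity, was at 1.42, 0.759 and 1.57 RPKM in the control and at 1.58, 0.799 and 1.28 RPKM in the libraries labelled Nf2 KO. As with Plcg1, its lowest library in each line was replicate 2, and the log2 difference was -0.02 (standard error 0.20).

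The summed level of the 3 receptors was 25.3, 22.9 and 27.8 RPKM in the control and 13.7, 15.7 and 15.9 RPKM in the libraries labelled Nf2 KO. The means were 25.3 ± 2.44 and 15.1 ± 1.22 RPKM (SD, n = 3 each), and Itpr3 carried this difference. Its share of the sum was 88.4%, 88.9% and 89.1% in the control, within 1 percentage point of each other, and 72.2%, 81.2% and 80.4% in the libraries labelled Nf2 KO. The share of Itpr1 was 6.34 ± 1.32% and 13.8 ± 2.35%, and that of Itpr2 4.85 ± 1.33% and 8.24 ± 3.25% (SD, n = 3 each), the last with overlapping libraries. Itpr3 stayed the main receptor in all 6 libraries, at 11.4 to 17.0 times the level of Itpr1 in the control and 4.44 to 6.95 times in the libraries labelled Nf2 KO.

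**Figure D2:**
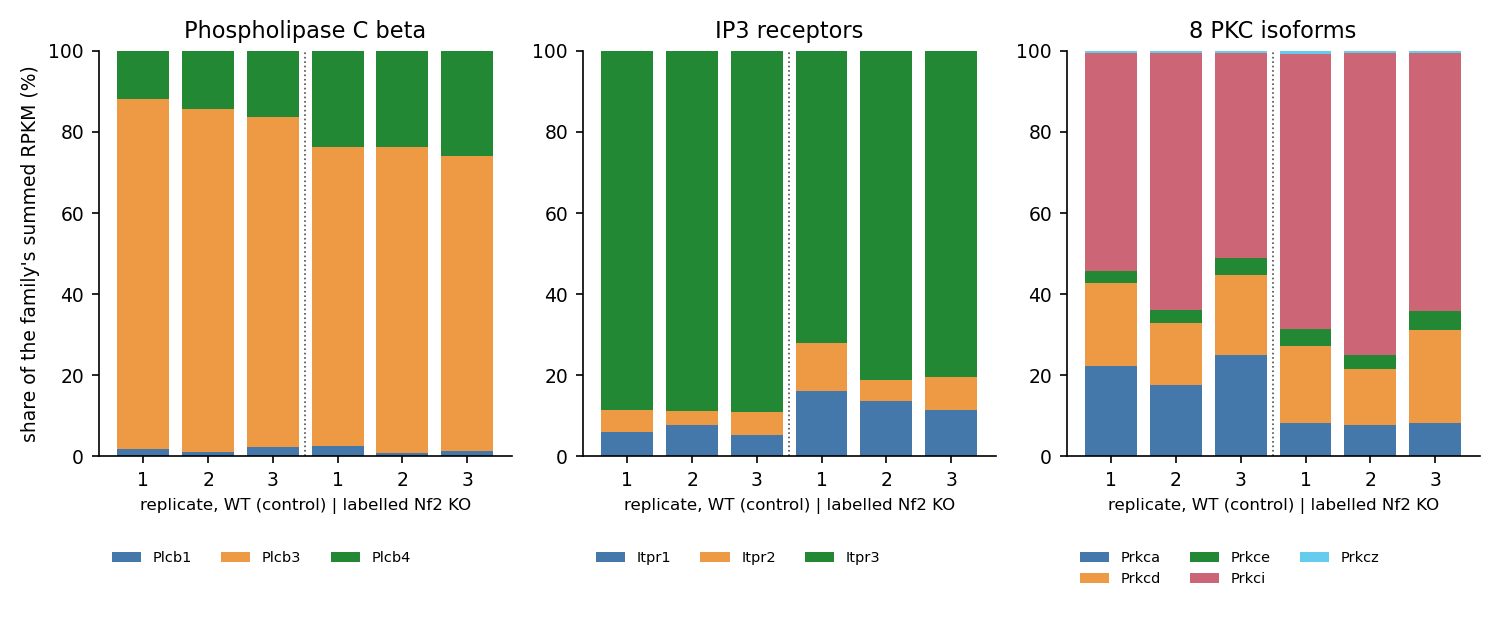
Share of each isoform in the summed RPKM of its family (%), for each replicate of the control (left of the dotted line) and of the libraries labelled Nf2 KO (right), leaving out isoforms under 0.5% in every library. Plcb4 widens from 11.8-16.4% to 23.6-25.9% of the beta isoforms, Itpr3 narrows from 88.4-89.1% to 72.2-81.2%, and Prkca narrows from 17.5-25.1% to 7.78-8.32% of 8 PKC isoforms, among which Prkci, outside the 10 genes, is the largest in every library.

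Of the kinases, Prkca was lower and Prkce higher in the libraries labelled Nf2 KO. Prkca, which encodes the conventional isoform PKC alpha, lies on the minus strand of chromosome 11 from 107933387 to 108343928. It was at 10.6, 8.72 and 11.4 RPKM in control replicates 1, 2 and 3 and at 4.62, 4.73 and 4.62 RPKM in the libraries labelled Nf2 KO. The groups did not overlap, with means of 10.3 ± 1.39 and 4.66 ± 0.0621 RPKM (SD, n = 3 each). Its log2 difference of -0.99 (standard error 0.11) was the largest of the 10 genes in size, and was exceeded in size by 189 of the 11067 genes tested. Within replicate numbers 1, 2 and 3 it was -1.05, -0.76 and -1.14.

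Prkce encodes PKC epsilon, which acts at the plasma membrane and the actin cytoskeleton. It was at 1.43, 1.53 and 1.96 RPKM in the control and at 2.39, 2.14 and 2.67 RPKM in the libraries labelled Nf2 KO, with a log2 difference of 0.37 (standard error 0.12). The lines did not overlap, though control replicate 3 lay close to the lowest library labelled Nf2 KO. Of its 31-base stretches, 5.9981% also occur in other genes, most often in AC154542.1, whose exons overlap those of Prkce on the same strand, a larger share than for any other of the 10 genes.

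Prkcd encodes PKC delta, known from apoptosis and stress signalling. It was at 9.62, 7.72 and 8.88 RPKM in the control and at 10.5, 8.33 and 13.1 RPKM in the libraries labelled Nf2 KO. The lines overlapped, with a log2 difference of 0.24 (standard error 0.17), though within each replicate number the library labelled Nf2 KO was the higher. Most of the difference came from replicate number 3, with 0.52 against 0.11 and 0.10 in numbers 1 and 2.

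The order of Prkca and Prkcd differed between the lines. Prkca was at 1.10 to 1.29 times the level of Prkcd in the 3 control libraries and at 0.352 to 0.567 times in those labelled Nf2 KO. Among the 3 kinases Prkca held 49.6 ± 1.499% of the summed RPKM in the control and 26.7 ± 4.23% in the libraries labelled Nf2 KO (SD, n = 3 each). Prkcd held 42.4 ± 2.30% and 59.7 ± 4.74%, and Prkce 7.96 ± 1.18% and 13.6 ± 0.514% (SD, n = 3 each), and none of these shares overlapped. These larger shares follow in part from the lower Prkca in the sum. Of 8 PKC isoforms, Prkcd held 18.4 ± 2.56% and 18.6 ± 4.71%, and Prkce 3.46 ± 0.727% and 4.18 ± 0.598% (SD, n = 3 each), both with overlapping libraries. The summed level of the 3 kinases did overlap, at 18.0 to 22.3 RPKM in the control and 15.2 to 20.4 RPKM in the libraries labelled Nf2 KO.

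Set among 8 PKC isoforms, the most abundant was Prkci, which encodes the atypical isoform PKC iota of cell polarity complexes. Prkci was at 25.5, 31.6 and 23.0 RPKM in the control and at 37.6, 45.3 and 36.0 RPKM in the libraries labelled Nf2 KO, with no overlap. Its log2 difference of 0.56 (standard error 0.15) did not pass in limma (adjusted p = 0.207) but did with the replicate number as a block (adjusted p = 0.0106). Prkca held 21.7 ± 3.86% of the RPKM summed over these 8 in the control and 8.08 ± 0.278% in the libraries labelled Nf2 KO (SD, n = 3 each). The sum itself was 47.6 ± 2.15 and 57.7 ± 2.77 RPKM (SD, n = 3 each), without overlap, so the share of Prkca also fell with the larger sum. The calcium-independent, diacylglycerol-responsive isoforms held 22.0 ± 2.88% and 22.8 ± 5.32%, with overlapping libraries. Atypical isoforms held 56.4 ± 6.68% and 69.1 ± 5.52% (SD, n = 3 each), and the highest control library, at 63.8%, lay just under the lowest labelled Nf2 KO, at 64.0%. Prkcz, an atypical isoform, was at 0.241 and 0.332 RPKM in the mean, and Prkcb, Prkch and Prkcq stayed at or under 0.0347 RPKM in every library.

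Ordered by mean level over the 6 libraries, Plcb3 came first at 20.6 ± 1.02 RPKM (SD, n = 6), followed by Plcg1 at 17.8, Itpr3 at 17.1, Prkcd at 9.69, Prkca at 7.46 and Plcb4 at 5.12 RPKM. Prkce at 2.02, Itpr1 at 1.83, Itpr2 at 1.23 and Plcb1 at 0.437 RPKM closed the order. The ranges of neighbours overlapped throughout, except that Plcb4 was above Prkce, and Itpr2 above Plcb1, in every pairing of libraries. Itpr3 ranked above Plcg1 in all 3 control libraries and below it in all 3 labelled Nf2 KO, and so did Prkca against Prkcd and against Plcb4.

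**Figure D3:**
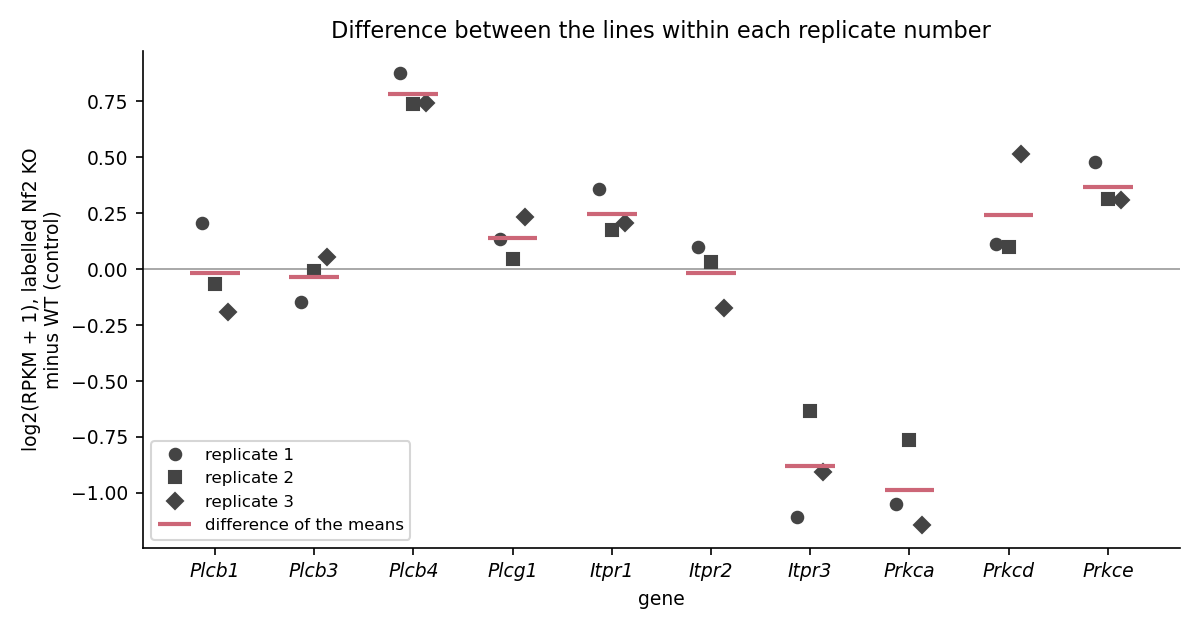
Difference in log2(RPKM + 1) between the library labelled Nf2 KO and the control library of the same replicate number (symbols) and between the line means (red bars) for the 10 genes. All 3 differences are above 0.7 for Plcb4 and below -0.6 for Itpr3 and Prkca, whereas those of Plcb1, Plcb3 and Itpr2 fall on both sides of 0.

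The genes whose values over the 6 libraries were most like those of Prkca were Prl2c2 (Pearson r = 0.994), Mmp3 (0.992) and Dcn (0.991), as a description over 6 libraries that share the difference between the lines. All 3 were under 1 RPKM in every library labelled Nf2 KO and entered the comparison only through the control, so that a likeness to a lower gene was built in. Prl2c2, a proliferin hormone gene with near-identical copies that can split its reads, was at 4.95 ± 1.64 and 0.592 ± 0.103 RPKM (SD, n = 3 each). Mmp3, a matrix metalloproteinase, was at 1.20 to 1.94 RPKM in the control and was listed at 0 in replicates 1 and 2 labelled Nf2 KO. Dcn, which encodes the matrix proteoglycan decorin and is among the fibroblast markers above, was at 2.73 ± 1.21 and 0.0906 ± 0.0563 RPKM (SD, n = 3 each).

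The other genes of the route were compared between the lines with limma. In 11 lists written from general knowledge, with earlier results of these data known, 213 further genes had a value and 147 were tested. Bdkrb2, Gap43 and Rgs4 passed (Bdkrb2 having reached the filter in the control only), 1 higher and 2 lower, or 2.04% of those tested against 1.06% of all genes. With the replicate number as a block 18 passed, 6 higher and 12 lower, or 12.2% against 7.53% of all genes. The lists held 5 to 20 tested genes each, so at these shares a count of 0 does not show that a list is level. The median log2 difference of the 147 genes was -0.05, against -0.01 over all genes tested. Without control replicate 1, control replicate 3, the library labelled Nf2 KO replicate 1 or that labelled Nf2 KO replicate 3, none of the 147 passed in limma, and without control replicate 2 Rgs4 was lost and Camk1d gained.

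Upstream of phospholipase C beta, 13 of 33 Gq-coupled receptors were tested, with a median log2 difference of -0.33 against -0.01 over all genes. This median is pulled lower by Bdkrb2 and Htr2a, which reached the filter only or mostly through the control, so nothing is read from it. Bdkrb2, the bradykinin B2 receptor, fell from 3.15, 2.52 and 2.99 RPKM in control replicates 1, 2 and 3 to 0.685, 0.984 and 0.718 RPKM in the libraries labelled Nf2 KO (log2 difference -1.11, standard error 0.12, limma adjusted p = 0.0217). It entered the test only through the control libraries, since all 3 labelled Nf2 KO were under 1 RPKM, so a gene admitted in this way had to be lower there. With the block Bdkrb2, Htr2a, Lpar1 and S1pr3 passed, all lower, where 4.54% of all genes were lower. Htr2a too reached the filter mostly through the control, with 1 library labelled Nf2 KO over 1 RPKM. S1pr3, a sphingosine-1-phosphate receptor, was at 4.25 ± 1.98 and 0.949 ± 0.282 RPKM (SD, n = 3 each, adjusted p = 0.0854 from limma and 0.0146 with the block). Lpar1, a lysophosphatidic acid receptor, was at 12.4 ± 2.57 and 7.10 ± 2.08 RPKM (SD, n = 3 each, adjusted p = 0.267 from limma and 0.0139 with the block). Htr2a, a serotonin receptor, was at 1.14, 4.46 and 1.12 RPKM in the control and 0.355, 1.89 and 0.293 RPKM in the libraries labelled Nf2 KO, highest in replicate 2 of both lines (adjusted p = 0.744 from limma and 0.0119 with the block). F2r, the thrombin receptor and most abundant of the list, was at 35.9 ± 11.9 and 31.3 ± 8.52 RPKM (SD, n = 3 each, adjusted p = 0.959 from limma).

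Of 12 genes for the Gq family and RGS proteins, 9 were tested. Rgs4, which speeds up GTP hydrolysis by Gq and Gi, rose from 1.15, 0.732 and 1.68 RPKM in the control to 11.3, 4.57 and 9.32 RPKM in the libraries labelled Nf2 KO (log2 difference 2.05, standard error 0.32, adjusted p = 0.0439 from limma). Gnaq, the alpha subunit of Gq itself, was at 11.6 ± 2.66 and 15.7 ± 2.77 RPKM (SD, n = 3 each, adjusted p = 0.543 from limma and 0.0293 with the block), with overlapping libraries. Gna11, its close relative and the most abundant of the list, was at 33.3 ± 2.38 and 33.8 ± 1.86 RPKM (SD, n = 3 each, adjusted p = 0.994 from limma).

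Other phospholipase C genes had 5 of 12 tested, and none passed in limma, where 1.06% of all genes did (1 at an unadjusted p under 0.05). Plcd1, a calcium-driven isoform, was at 4.87 ± 1.18 and 3.06 ± 0.424 RPKM (SD, n = 3 each, adjusted p = 0.306 from limma and 0.0233 with the block), without overlap. Plcxd2, a small relative with the X domain, was at 2.05, 8.95 and 2.20 RPKM in the control and 4.53, 12.5 and 3.40 RPKM in the libraries labelled Nf2 KO (adjusted p = 0.911 from limma and 0.0304 with the block). Plcg2 and Plcd3, at means of 6.88 and 6.65 RPKM over the 6 libraries, passed neither fit. Plcxd1, at 1.04 RPKM over the 6 libraries, passed neither. Plce1, which links Ras to phospholipase C, was under the filter at 0.890 ± 0.237 and 0.403 ± 0.0735 RPKM (SD, n = 3 each). Plcd4, Plch1, Plch2, Plcl1 and Plcl2 had means under 1 RPKM in both lines and were not tested. Of the remaining kinases only Prkci passed, and only with the block, among 7 tested (1 at an unadjusted p under 0.05 without it). With the block 7.53% of all genes passed. The protein kinase D and PKN genes passed neither fit.

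The lists around IP3 and diacylglycerol hold the genes that make PIP2, remove diacylglycerol and metabolize inositol phosphates. Over all genes 1.06% passed in limma and 7.53% with the block, so 0 calls in lists this short say little about them. For PIP2 supply 0 of 17 tested genes passed in limma (1 at an unadjusted p under 0.05), and with the block only Pip5k1c, which makes PIP2 at focal adhesions, passed, with 19.0 ± 1.32 and 14.4 ± 0.191 RPKM (SD, n = 3 each, adjusted p = 0.142 from limma and 0.0286 with the block). For diacylglycerol removal 0 of 10 passed in limma (1 at an unadjusted p under 0.05), and the block added Dagla, a diacylglycerol lipase, at 4.09 ± 0.0856 and 2.85 ± 0.278 RPKM (SD, n = 3 each, adjusted p = 0.164 from limma and 0.0321 with the block). None of 18 inositol phosphate genes passed in limma (2 at an unadjusted p under 0.05) or with the block. The most abundant genes of these lists, Pitpnb, Plpp1 and Minpp1, were at means of 41.0, 85.1 and 26.4 RPKM over the 6 libraries and passed neither fit.

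On the calcium side, 0 of 20 tested genes for stores and store-operated entry passed in limma (2 at an unadjusted p under 0.05) or with the block, with a median log2 difference of -0.04. Over all genes 1.06% passed in limma and 7.53% with the block, so 0 calls say little here too. Calr, the calcium-binding chaperone calreticulin, was the most abundant at 411 ± 56.6 and 451 ± 99.7 RPKM (SD, n = 3 each, adjusted p = 0.970 from limma). Of 18 tested IP3 receptor regulators 0 passed in limma (1 at an unadjusted p under 0.05), and 2 were lower with the block (4.54% of all genes were). They were Bok, a Bcl2 relative that binds IP3 receptors, at 11.5 ± 2.83 and 7.81 ± 2.88 RPKM (SD, n = 3 each, adjusted p = 0.626 from limma and 0.0206 with the block), and Erlin1, of the complex that degrades activated IP3 receptors, at 11.1 ± 2.35 and 8.84 ± 1.87 RPKM (SD, n = 3 each, adjusted p = 0.759 from limma and 0.0490 with the block). Hspa9, the most abundant of them by the mean over the 6 libraries, was at 242 ± 26.6 and 215 ± 21.9 RPKM (SD, n = 3 each) and passed neither fit. Among 16 calcineurin, NFAT and CaM kinase genes 0 passed in limma (1 at an unadjusted p under 0.05). Camk1d, a calmodulin-dependent kinase, passed with the block, at 4.52 ± 1.47 and 1.92 ± 0.504 RPKM (SD, n = 3 each, adjusted p = 0.204 from limma and 0.0309 with the block). Ppp3r1, the calcineurin regulatory subunit, was at 41.8 ± 1.45 and 42.5 ± 1.21 RPKM (SD, n = 3 each) and passed neither.

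Downstream of diacylglycerol, 14 of 23 PKC substrates, anchors and other effectors were tested. Gap43, a growth cone protein that PKC phosphorylates, fell from 13.9, 12.6 and 11.98 RPKM in control replicates 1, 2 and 3 to 1.92, 4.77 and 2.37 RPKM in the libraries labelled Nf2 KO (log2 difference -1.85, standard error 0.25, adjusted p = 0.0329 from limma). Rasgrp3, a Ras exchange factor that diacylglycerol recruits, was at 0.483, 2.39 and 0.590 RPKM in the control and at 3.98, 10.1 and 4.43 RPKM in the libraries labelled Nf2 KO. It had nearly the same difference within each replicate number, 1.75, 1.71 and 1.77, and passed with the block (adjusted p = 0.000987) but not without (adjusted p = 0.168 from limma). Rasgrp3 reached the filter mostly through the libraries labelled Nf2 KO, with 1 control library over 1 RPKM. A gene admitted in this way tended to be higher in the libraries labelled Nf2 KO. Marcks, the main PKC substrate at the membrane, was at 63.6, 51.8 and 65.3 RPKM in the control and at 121, 87.5 and 83.1 RPKM in the libraries labelled Nf2 KO (adjusted p = 0.195 from limma and 0.0344 with the block). Phlpp1, a phosphatase of Akt and PKC, was at 6.87 ± 0.588 and 5.36 ± 0.190 RPKM (SD, n = 3 each, adjusted p = 0.271 from limma and 0.0496 with the block).

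**Figure D4:**
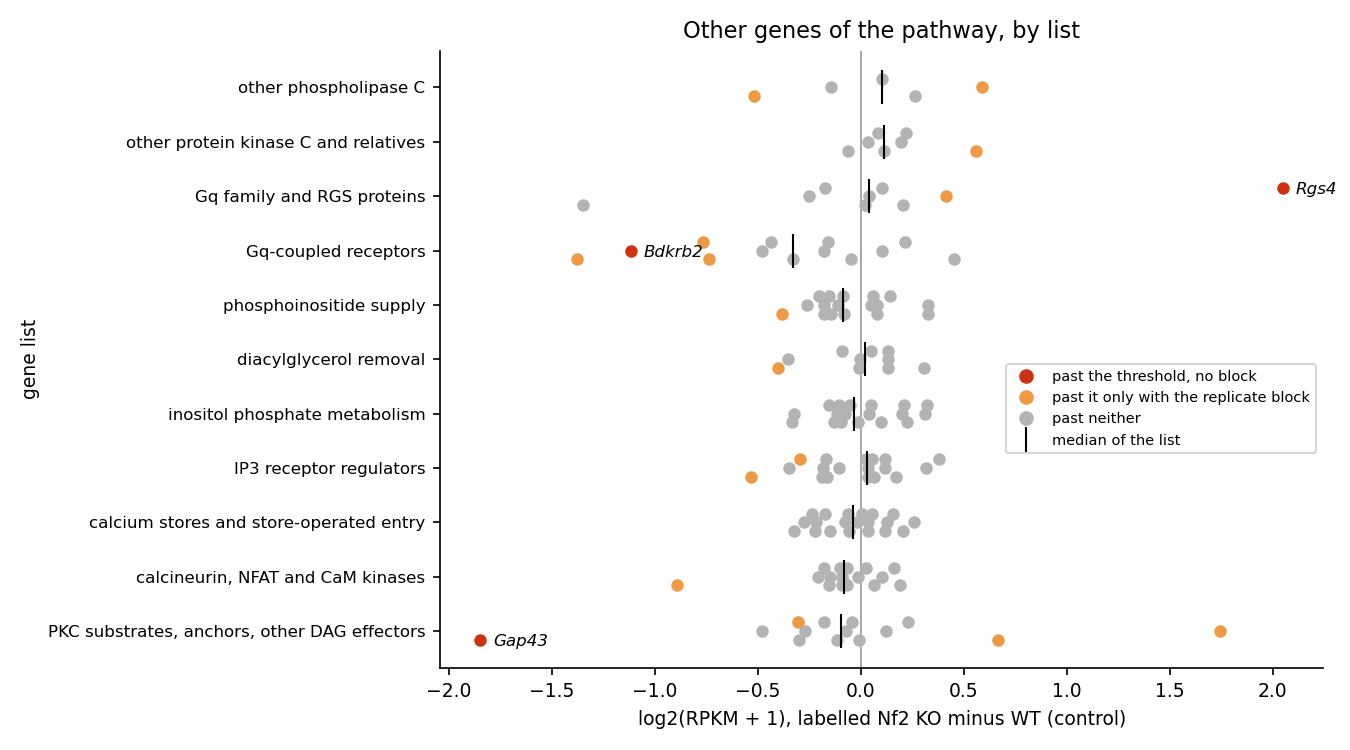
Difference in log2(RPKM + 1) between the libraries labelled Nf2 KO and the control for 147 tested genes in 11 lists, with a point per gene and a black tick at each list's median. Rgs4 (2.05), Bdkrb2 (-1.11) and Gap43 (-1.85) passed in limma, orange genes passed only with the replicate block, and the lists of inositol phosphate and calcium store genes hold no colored point.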

How the data were processed

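RNA was sequenced from 3 libraries labelled WT (control) and 3 labelled Nf2 KO, grouped by their labels. A company, GENEWIZ, sequenced the libraries and analysed the reads. The authors deposited 1 table with a value per gene and library, taken here as RPKM (build mm10 per the labels). The unit, aligner, counting tool and strand setting are not given in the sources used here. Multiplied by exon length (GENCODE vM21), 86.4% to 87.9% of values of up to 20 reads lay within 0.1 read of a whole read (20% if spread evenly), which gave the inferred depths of 13397363 to 72753565 reads.

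The 11067 genes that reached 1 RPKM in 3 or more libraries were tested on log2(RPKM + 1) with limma 3.58.1 in R 4.3.3 (trend and robust settings, two-sided, Benjamini-Hochberg over all genes, threshold 0.05), unpaired, on the log scale that the study's methods name. The departure of each library from the mean of its line correlated between libraries of the same number, at 0.552, 0.819 and 0.516 for replicates 1, 2 and 3, so the numbers were taken to pair the libraries, and results with the number as a replicate block are given where a call changes. The deposited column headers also mark replicate 3 of both lines unlike replicates 1 and 2, without saying why. The fits were also run on simulated data in which 200 of 11067 genes carried a log2 change of 1.5. The unpaired fit recovered 86.5% of them, with 0.575% of its calls false. With the replicate block 90.5% were recovered, with 2.16% of calls false. The differences of Plcb4, Itpr3 and Prkca were smaller, at 0.78, -0.88 and -0.99, and recovery at those sizes was not tested.

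The 10 genes and the lists were chosen with earlier results of these data known. Named genes are Nf2, the 10 genes, other phospholipase C and PKC isoforms, list genes past the threshold in either fit, the most abundant gene of each list, and the 3 genes most correlated with the member of largest difference. Alternatives were 0.1 as pseudocount, a filter of 5 RPKM or none, quantile normalization, limma without trend and robust settings, the block, and leaving out libraries. Coordinates are from GENCODE vM21 (GRCm38). Figures were drawn with matplotlib 3.10.9. Protein sequences were not used here. A further PKC isoform is not reported here and is left out of the shares and lists.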

Additional observations from a re-analysis of the deposited data

How the results depend on the processing

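Without a filter on low values, 26231 genes were adjusted together, and 9 genes passed in all, 0 of the 10 described genes (4 at an unadjusted p under 0.05) and 0 of the other route genes. With a filter of 5 RPKM 63 genes passed in all and 1 of the other route genes (Gap43), with fewer genes tested, while Plcb4, Itpr3 and Prkca still passed. With the replicate block 833 genes passed in all and 18 of the other route genes, since it removes replicate differences from the error, and the calls among the 10 genes were Plcb4, Itpr3 and Prkca as without it. When a library or a replicate number was left out, 0 to 484 genes passed in all, 0 to 3 of the described genes and 0 to 9 of the other route genes. The 484 and the 9 came without replicate 2 of both lines, and 0 genes passed in all without replicate 1 (578 at an unadjusted p under 0.05) or replicate 3 (556). A pseudocount of 0.1, quantile normalization and limma without trend and robust settings left the 3 calls and stayed within 1.5 times of 117 calls in all (121, 125 and 131). The differences of Itpr1, Itpr3, Plcb4, Prkca, Prkcd and Prkce kept their sign under every alternative run, while those of Itpr2, Plcb3 and Plcg1 did not. The difference in share stayed between -12.5 and -7.99 percentage points for Itpr3, between -25.6 and -20.0 for Prkca and between 5.33 and 6.77 for Plcb4 of the 4 phospholipases.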
